A study of Mus musculus with 6 samples.

Results

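The nuclear genes for subunits of respiratory complexes I, II and III were examined in RNA of mouse aortas. The members were taken by gene symbol alone: the Ndufa, Ndufb, Ndufc, Ndufs and Ndufv genes with a number, Sdha to Sdhd, and Uqcrb, Uqcrh, Uqcrq, Uqcr10, Uqcr11, Uqcrc1, Uqcrc2 and Uqcrfs1. This gave 48 of 18749 gene rows, 36 for complex I, 4 for complex II and 8 for complex III, and all 48 passed the filter on low counts. Ndufa4 is kept here because of its symbol, although its protein is now usually counted with complex IV. Ndufab1 and Cyc1 are subunits whose symbols fall outside the rule. The subunits encoded by mitochondrial DNA had no row under the symbols searched, so they were not analysed.

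All aortas came from Apoe-/- mice, which lack apolipoprotein E, and all mice received angiotensin II (Ang II) by infusion for 28 days. The control recipients carried Apoe-/- bone marrow (3 libraries), and the Sept2C111A recipients carried bone marrow that was Apoe-/- and had the septin-2 variant Sept2C111A (3 libraries). The variant was thus borne by marrow-derived cells, while the vessel wall belonged to the Apoe-/- recipient. The labels give neither age nor sex, and do not say how much surrounding tissue was left on the vessel.

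Complex I passes electrons from NADH to ubiquinone, complex II passes them from succinate to ubiquinone as part of the citric acid cycle, and complex III passes them on from ubiquinol to cytochrome c. Complexes I and III pump protons in doing so, and complex II does not. Brown adipocytes and cardiac muscle cells are packed with mitochondria and carry far more of this RNA per cell than smooth muscle cells or fibroblasts. In a bulk sample such as these, more cells of a type and more RNA per cell cannot be told apart.

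Every one of the 48 subunit genes had a higher estimate in the Sept2C111A recipients, with log2 fold changes from 0.18 to 0.67 and a median of 0.51, but none passed the test. By edgeR's quasi-likelihood test with Benjamini-Hochberg adjustment over 14466 genes, 0 members were called higher and 0 lower, against 0.0% of all genes in each direction. The members' adjusted p ran from 0.316 to 0.685. At an unadjusted p under 0.05 edgeR gave 7 members, all higher, where 6.17% of all genes were higher and 8.83% lower. An estimate above 0 was found for 50.1% of all genes, whose median was 0.00. DESeq2 called 1 member, Ndufv3, against 1.09% of all genes called higher and 2.88% lower.

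The members took 0.442%, 0.365% and 0.296% of all counts in control libraries 1, 2 and 3, and 0.503%, 0.376% and 0.742% in Sept2C111A libraries 1, 2 and 3. Sept2C111A 3 was thus far above the other libraries and control 3 the lowest. The deposited column of Sept2C111A 3 is headed with another library number than its file, so results are also given without it. Summed over complex I, the level was 2722, 2353 and 1981 CPM (a count scaled to the total of all rows of its library) in the controls and 3132, 2462 and 4526 CPM in the Sept2C111A libraries. The group means of 2352 ± 370.3 and 3373 ± 1053 CPM (SD, n = 3) differed by 1.43-fold, while Sept2C111A 3 exceeded Sept2C111A 2, of its own group, by 1.84-fold. Control 1 lay above Sept2C111A 2, so the groups overlapped. Complex II summed to 729, 557 and 397 CPM in the controls and to 829, 540.1 and 1232 CPM in the Sept2C111A libraries, a ratio of group means of 1.55. Complex III summed to 974, 743 and 586 CPM and to 1071, 756 and 1659 CPM, a ratio of 1.51. In both complexes the groups overlapped in the same way, and Sept2C111A 3 was 2.28-fold and 2.19-fold above Sept2C111A 2.

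**Figure D1:**
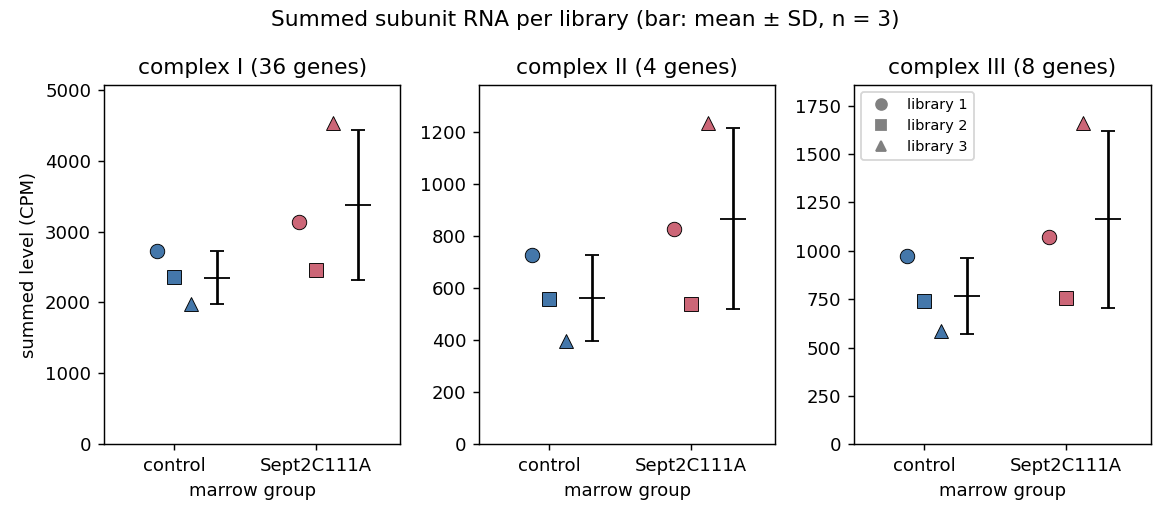
Summed level of the subunit genes of each complex (CPM, linear axis from 0) in the 6 libraries, by marrow group, with the mean and SD of the 3 libraries beside them. For complex I the highest point is Sept2C111A 3 at 4526 CPM and the lowest control 3 at 1981 CPM, and control 1 lies above Sept2C111A 2 for all 3 complexes.

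The same order of libraries recurred from gene to gene. All 48 members were highest in Sept2C111A 3, where 29.5% of all genes tested were, and 43 were lowest in control 3, where 29.1% of all genes were. Both held for 43 members and for 14.1% of all genes. The 5 members lowest elsewhere were Ndufa2, Ndufa3 and Ndufc2 (control 2), Ndufa13 (control 1) and Ndufs4 (Sept2C111A 2). Control 1 was the highest control for 44 members, and Sept2C111A 2 the lowest library of its group for 46. The share of all genes was not counted for either pattern. The ratio of Sept2C111A 3 to control 3 ran from 1.44 for Ndufc2 to 3.78 for Uqcrfs1, with a median of 2.42, while the median over all genes tested was 1.08.

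**Figure D2:**
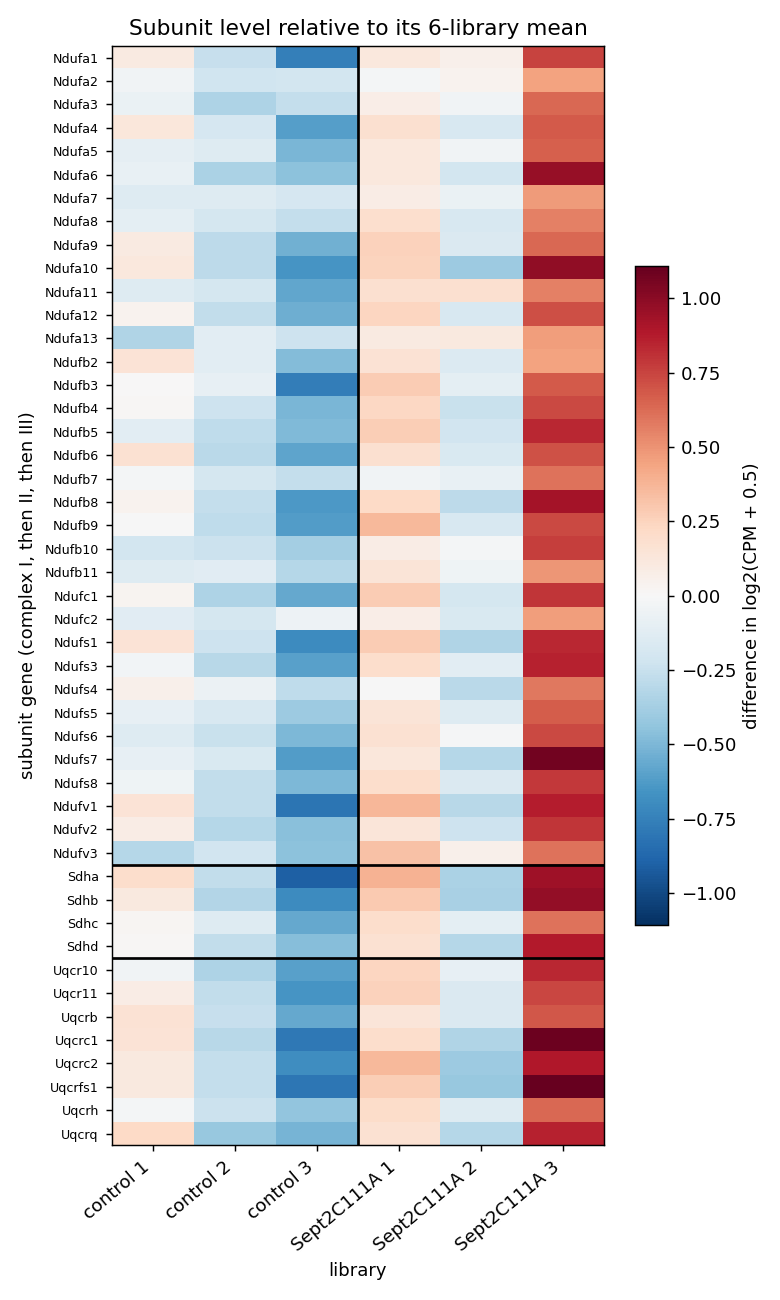
Level of 47 subunit genes (rows, complex I above II above III) in each library (columns), as the difference in log2(CPM + 0.5) from the gene's mean over the 6 libraries. The column of Sept2C111A 3 holds the highest value of all 47, and the column of control 3 the lowest value of 42.

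The size of the estimates changed with the libraries kept. Without Sept2C111A 3 the median log2 fold change over the members was 0.25, with 47 above 0 (49.5% of all genes) and Ndufs4 at -0.06. Without control 3 it was 0.36, without control 1 it was 0.68 and without Sept2C111A 2 it was 0.67, against 0.51 with all 6 libraries. Sept2C111A 3 and control 3 held the extremes, so leaving them out lowers the difference by construction. With both left out, a fit chosen after the data had been seen, the median was 0.13. In it 44 members were above 0 and 4 below, against 50.6% of all genes above 0. In that fit the medians for complexes I, II and III were 0.13, 0.07 and 0.05.

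**Figure D3:**
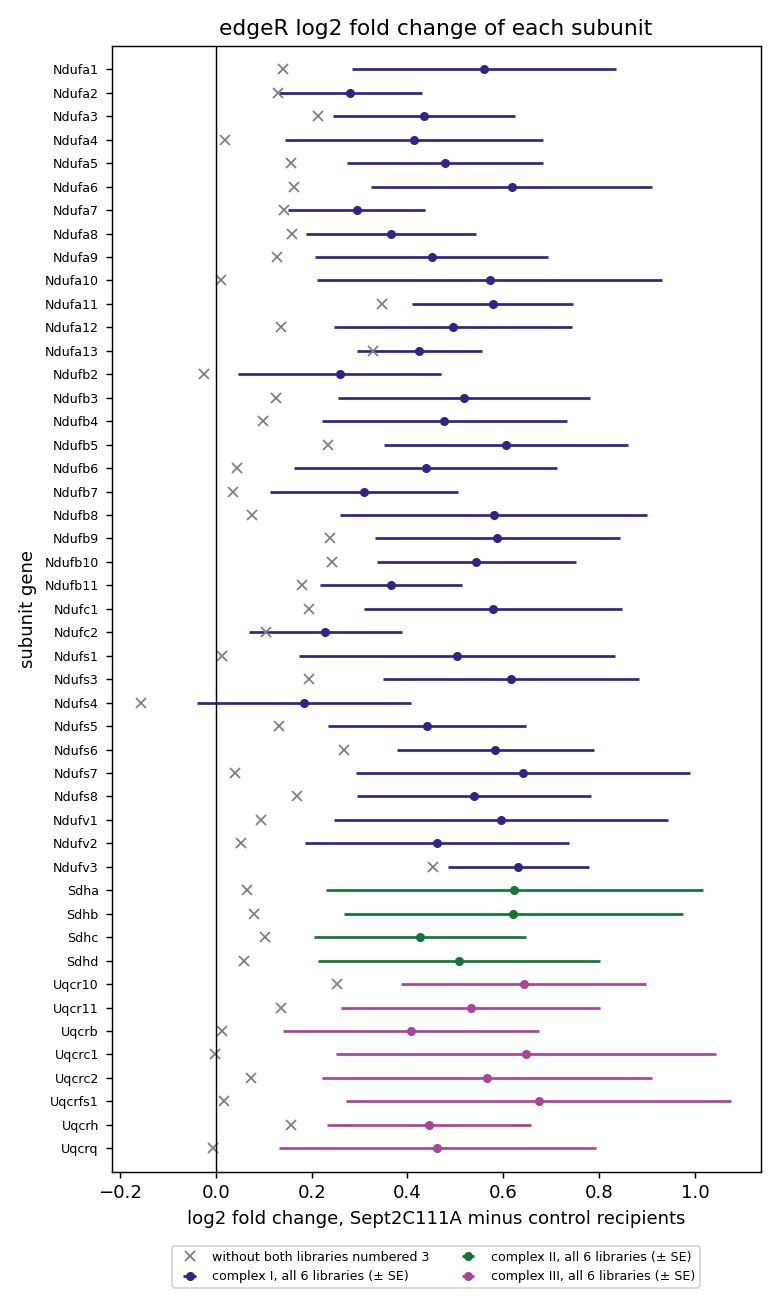
Log2 fold change of 47 subunit genes (x axis, Sept2C111A minus control recipients) from edgeR with its SE as a bar, by complex, and the estimate without control 3 and Sept2C111A 3 as a cross. All 47 points lie above 0 with 6 libraries, from 0.18 to 0.67, and the crosses lie nearer to 0, with Ndufb2, Ndufs4, Uqcrc1 and Uqcrq below it.

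Summed markers of brown adipocytes and of striated and cardiac muscle were highest in Sept2C111A 3 and lowest in control 3, but single genes differed. Kng2 of the brown adipocyte list was highest in control 3 (30.6 CPM, against 25.9 CPM in Sept2C111A 3). Of the muscle list, Acta1 was highest in control 3 (1.56 CPM) and Tnnt3 lowest in Sept2C111A 3 (1.58 CPM). The brown adipocyte list summed to 44.6 to 1073 CPM in the controls and 809 to 2157 CPM in the Sept2C111A libraries, with the lowest sum in control 3 and the highest in Sept2C111A 3, and 9 of its 10 genes had estimates above 0. Ucp1, the uncoupling protein that defines brown fat, was at 289.7, 170.1 and 2.15 CPM in the controls and 551, 157 and 1219.9 CPM in the Sept2C111A libraries, and Elovl3 and Cpn2 had no count in control 3. Dio2, the other abundant gene of the list, was at 4.78 to 517 CPM in controls and 113 to 444 CPM in Sept2C111A libraries. The 12 adipocyte genes summed to 1652 to 4170 CPM in the controls, lowest in control 3, and to 7631, 3311 and 6185 CPM in Sept2C111A libraries 1, 2 and 3, so their highest sum was in Sept2C111A 1, and all 12 had estimates above 0. Cfd and Fabp4, products of mature adipocytes, ran from 234 to 609 and from 544 to 1825 CPM in controls, and from 552 to 1863 and from 1074 to 2162 CPM in Sept2C111A libraries. Sept2C111A 3 had the lowest Cfd and the highest Fabp4 of its group. The striated and cardiac muscle list summed to 15.5 to 126 CPM in the controls and to 34.6, 42.0 and 2214 CPM in the Sept2C111A libraries. Of its 14 genes 8 were tested and 6 of these had estimates above 0. Myh6, a cardiac myosin heavy chain, was at 901 CPM in Sept2C111A 3 and at 0.293 to 26.4 CPM in the other libraries. Tnnt2, a cardiac troponin, was at 294 CPM there and at 7.71 to 34.3 CPM elsewhere, and Myh7 had no count in 3 libraries, among them control 3. The part of these cells in the subunit levels was not tested.

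**Figure D4:**
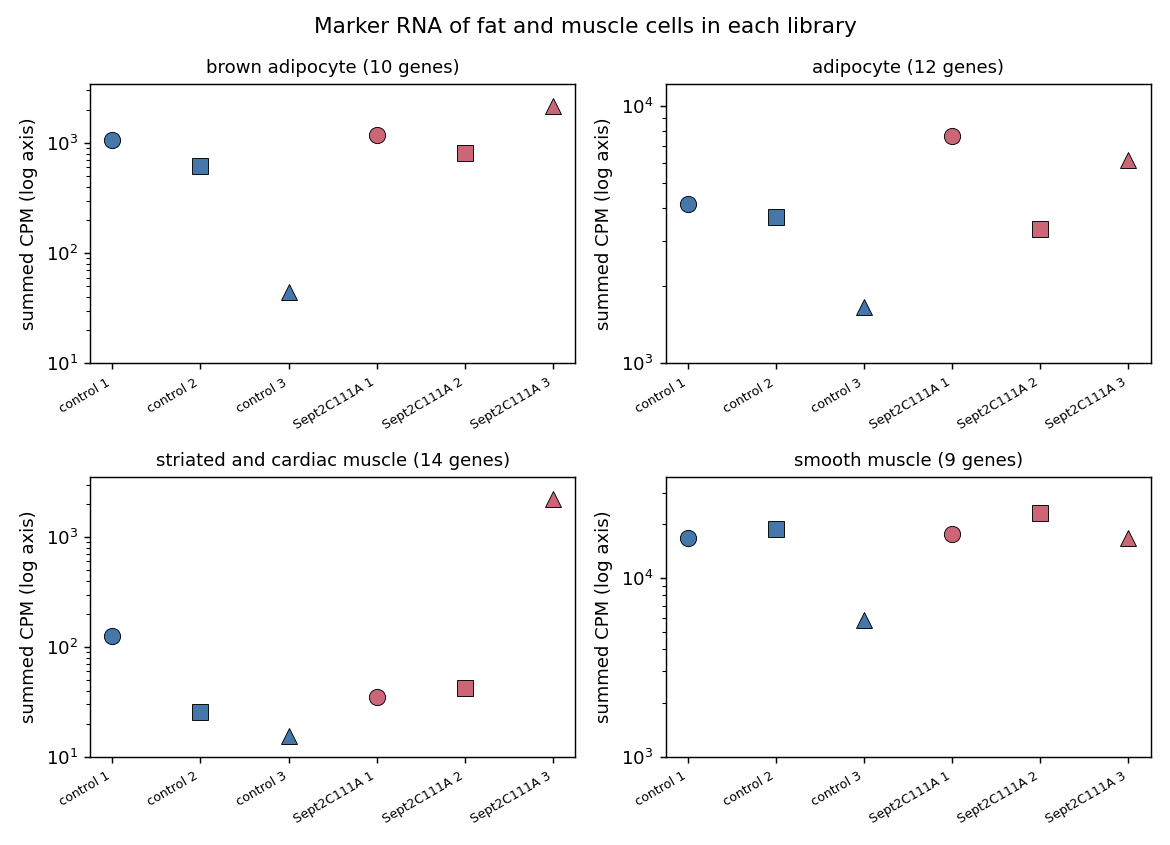
Summed CPM (log axis) of 4 marker lists in each library, controls in blue and Sept2C111A libraries in red. Sept2C111A 3 has the highest sum of the brown adipocyte list (2157 CPM) and of the striated and cardiac muscle list (2214 CPM), and control 3 the lowest sum of all 4 lists.

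The aorta label was checked against smooth muscle markers: the 9 smooth muscle genes summed to 16705, 18742 and 5843 CPM in the controls and 17669, 23045 and 16749 CPM in the Sept2C111A libraries. Acta2 and Tagln, its contractile genes, were at 2576 and 1747 CPM in control 3 and at 6015 to 8861 and 3582 to 5908 CPM elsewhere, so control 3 held the least smooth muscle RNA too. Fibroblast markers summed to 3804 to 5001 CPM in controls and 6791 to 9239 CPM in Sept2C111A libraries. All 8 fibroblast estimates were above 0 and DESeq2 called 4 higher, against 1.09% of all genes. Neutrophil markers summed to 88.7 to 2825 CPM in controls and 15.3 to 29.3 CPM in Sept2C111A libraries, macrophage markers to 1855 to 2911 and 1399 to 2085 CPM, endothelial markers to 692 to 1281 and 592 to 1469 CPM, erythroid markers to 70.9 to 1633 and 195 to 722 CPM, and T and B cell markers to 13.3 to 29.2 and 5.19 to 22.7 CPM. The 2 most abundant genes had log2 fold changes of 1.09 (Dcn) and 0.27 (Col14a1) for fibroblasts, -7.12 (S100a8) and -4.91 (Csf3r) for neutrophils, -0.58 (Lyz2) and -0.23 (Csf1r) for macrophages, 0.36 (Pecam1) and 1.01 (Vwf) for endothelium, and -1.33 (Hba-a1) and -1.40 (Hbb-bs) for erythroid cells. Over the whole lists, all 6 tested neutrophil genes were lower and called by DESeq2, against 2.88% of all genes called lower. Of the macrophage genes 2 were higher and 6 lower (median -0.47), of the endothelial genes 4 and 4 (median -0.01), of the erythroid genes 0 and 5 (median -1.33), and of the T and B cell genes 2 and 5 (median -0.69), with none called by either tool. Their part in the subunit levels was not tested either. Library totals ran from 17082719 to 20494928 expected counts, and no member had fewer than 462 in any library. Counting error was not compared with the spread of each member, which was narrow for some, as for Ndufa7 in the controls (61.5 ± 1.01 CPM).

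Complex II is the smallest of the 3, with a flavoprotein, an iron-sulphur protein and a pair of membrane anchors. Sdha (chromosome 13, 74322254 to 74350280, mm10), the flavoprotein that oxidises succinate, was at 413, 298 and 193 CPM in control libraries 1, 2 and 3 and at 472, 283 and 693 CPM in Sept2C111A libraries 1, 2 and 3. It was the most abundant member by CPM, and its log2 fold change was 0.62 (SE 0.39; adjusted p by edgeR = 0.449). Sdhb (chromosome 4, 140961203 to 140979193), the iron-sulphur subunit, was at 106, 78.1 and 60.2 CPM in controls and 120.1, 76.4 and 193 CPM in Sept2C111A libraries, a log2 fold change of 0.62 (SE 0.35). The anchors Sdhc (chromosome 1, 171127165 to 171150603) and Sdhd (chromosome 9, 50596357 to 50603812) hold the haem and the ubiquinone site in the inner membrane. Sdhc was at 112, 100.3 and 74.4 CPM in controls and 127, 103 and 168 CPM in Sept2C111A libraries. Sdhd was at 98.0, 80.2 and 69.9 CPM and at 109, 78.1 and 179 CPM. Their fold changes (log2) were 0.43 (SE 0.22) and 0.51 (SE 0.29). For all 4 genes the groups overlapped, since control 1 lay above Sept2C111A 2.

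In complex III the member that carries a redox centre is the Rieske iron-sulphur protein, Uqcrfs1 (chromosome 13, 30540308 to 30545362). It was at 102, 79.1 and 54.6 CPM in the controls and 115, 71.2 and 206 CPM in the Sept2C111A libraries, and its log2 fold change of 0.67 (SE 0.40; adjusted p by edgeR = 0.428) was the highest of the 48. The core proteins Uqcrc1 (chromosome 9, 108936633 to 108949623) and Uqcrc2 (chromosome 7, 120635176 to 120659524) form the matrix side of the complex. Uqcrc1 was at 155, 112 and 79.8 CPM and at 159, 109.9 and 295 CPM. Uqcrc2 was at 192, 148 and 111 CPM and at 228, 135 and 331 CPM. Their fold changes (log2) were 0.65 (SE 0.40) and 0.57 (SE 0.34), and that of Uqcrc1 was -0.003 without control 3 and Sept2C111A 3.

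The small subunits of complex III have no redox centre. Uqcrh (chromosome 4, 116066965 to 116075071), the acidic hinge protein near the cytochrome c1 site, was at 144, 124 and 108 CPM in the controls and 169, 133 and 228 CPM in the Sept2C111A libraries. Uqcrb (chromosome 13, 66900617 to 66905378), which lies by the ubiquinone site, was at 119.8, 89.7 and 72.2 CPM and at 117, 96.1 and 173 CPM. Uqcrq (chromosome 11, 53427922 to 53430831), named for binding ubiquinone, was at 109.7, 69.9 and 65.4 CPM and at 106, 75.4 and 169.8 CPM. In Uqcrb and Uqcrq control 1 also lay above Sept2C111A 1, unlike in the other complex III genes. Uqcr10 (chromosome 11, 4701973 to 4704342) was at 69.8, 56.6 and 47.3 CPM and at 84.9, 67.3 and 129 CPM, and Uqcr11 (chromosome 10, 80402997 to 80406830) at 80.8, 62.9 and 48.1 CPM and at 91.2, 68.3 and 128 CPM. Both are short proteins that cross the inner membrane. Uqcr10, at a log2 fold change of 0.64 (SE 0.25), was the complex III member with an unadjusted edgeR p under 0.05 (adjusted p = 0.331). The other 4 small subunits had log2 fold changes from 0.41 to 0.53, and all 8 complex III genes had overlapping groups.

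In complex I, nuclear genes encode the core of the matrix arm, which carries the flavin and the iron-sulphur clusters. Ndufv1 (chromosome 19, 4007384 to 4012806), the flavin subunit where NADH is oxidised, was at 159.5, 119 and 81.8 CPM in the controls and 186, 116 and 264 CPM in the Sept2C111A libraries. Ndufv2 (chromosome 17, 66078638 to 66101559), its iron-sulphur partner, was at 101, 76.6 and 69.0 CPM and at 105, 81.3 and 166 CPM. Ndufs1 (chromosome 1, 63143596 to 63176833), the largest subunit of the arm, was at 117, 89.1 and 64.3 CPM and at 127, 83.0 and 187 CPM. These 3 genes of the NADH-oxidising end showed fold changes (log2) of 0.59 (SE 0.35), 0.46 (SE 0.28) and 0.50 (SE 0.33), with overlapping groups.

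Nearer the membrane, Ndufs7 (chromosome 10, 80249121 to 80256794) lies by the pocket where ubiquinone is reduced. It was at 37.8, 35.8 and 26.0 CPM in controls and 44.2, 32.3 and 85.2 CPM in Sept2C111A libraries, with control 1 above Sept2C111A 2. Ndufs3 (chromosome 2, 90894634 to 90904827), a core subunit without a cluster, was at 62.7, 51.7 and 42.0 CPM and at 73.3, 58.9 and 116 CPM. Ndufs8 (chromosome 19, 3908863 to 3912774), which carries a pair of clusters, was at 47.9, 40.7 and 34.8 CPM and at 56.5, 44.0 and 85.1 CPM. The fold changes (log2) were 0.64 (SE 0.35) for Ndufs7, 0.62 (SE 0.27) for Ndufs3 and 0.54 (SE 0.24) for Ndufs8. The median over the core genes was 0.54, and all of them had overlapping groups.

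The other 29 complex I members encode accessory subunits, apart from Ndufa4, and had a median log2 fold change of 0.48. All 10 members whose groups did not overlap were among them, each with the 3 Sept2C111A libraries above the 3 controls, a pattern found for 11.4% of all genes. Ndufv3 (chromosome 17, 31520115 to 31531331), an accessory protein of the NADH-oxidising end, was at 61.2, 65.9 and 55.5 CPM in the controls and 95.9, 79.4 and 116 CPM in the Sept2C111A libraries. Its means of 60.9 ± 5.21 and 97.2 ± 18.4 CPM (SD, n = 3) gave a log2 fold change of 0.63 (SE 0.15), with an adjusted p of 0.316 by edgeR and 0.0142 by DESeq2. DESeq2 kept the call without control 2 (adjusted p = 0.0141) and without Sept2C111A 2 (adjusted p = 0.00517). It lost it without control 1 (adjusted p = 0.0652), control 3 (adjusted p = 0.101), Sept2C111A 1 (adjusted p = 0.145) or Sept2C111A 3 (adjusted p = 0.164). Without both libraries numbered 3, the log2 fold change of Ndufv3 was 0.45.

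The next accessory members by p were Ndufa11, Ndufa13 and Ndufs6. Ndufa11 (chromosome 17, 56717767 to 56722141), a membrane-arm protein at the contact with complex III, was at 31.0, 29.9 and 22.9 CPM in the controls and 39.0, 38.9 and 50.9 CPM in the Sept2C111A libraries, a log2 fold change of 0.58 (SE 0.17). Ndufa13 (chromosome 8, 69894180 to 69902558), also known as GRIM-19, was at 74.8, 86.6 and 80.4 CPM and at 101, 102 and 130.2 CPM, with an estimated log2 fold change of 0.42 (SE 0.13). Ndufs6 (chromosome 13, 73319838 to 73328542), a zinc-binding protein of the matrix arm, was at 34.8, 32.2 and 27.0 CPM and at 43.3, 38.0 and 64.3 CPM, with an estimated log2 fold change of 0.58 (SE 0.21). In these 3 genes Sept2C111A 2 also lay above every control, and the edgeR adjusted p of each was 0.316. Ndufb4 (chromosome 16, 37647170 to 37654453), a membrane-arm protein and the least abundant member by CPM, was at 32.8, 27.7 and 22.7 CPM and at 38.1, 27.4 and 54.4 CPM, with overlapping groups. Its counts were fractional in all 6 libraries, so reads were divided with other genes, and its close relative Ndufb4c held 203 to 408 counts per library.

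The remaining 24 members were Ndufa1 to Ndufa10, Ndufa12, Ndufb2, Ndufb3, Ndufb5 to Ndufb11, Ndufc1, Ndufc2, Ndufs4 and Ndufs5. Their mean levels ran from 35.4 to 175 CPM and their log2 fold changes from 0.18 (Ndufs4) to 0.62 (Ndufa6). Ndufa2, Ndufa3, Ndufa5, Ndufa7, Ndufb10 and Ndufb11 had groups that did not overlap, with log2 fold changes from 0.28 to 0.54, and the other 18 overlapped. Ndufs4, an accessory subunit needed for a stable NADH-oxidising end, was the sole one of these to fall below 0 without Sept2C111A 3.

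Levels of different genes were compared per kilobase of the principal coding transcript in GENCODE vM21, as mean ± SD over the 6 libraries. In complex II, Sdha stood at 135 ± 61.2 CPM per kb, Sdhb at 92.5 ± 42.2, Sdhd at 83.1 ± 32.5 and Sdhc at 36.0 ± 9.92. The ratio of Sdha to Sdhb per kb stayed between 1.26 (control 3) and 1.55 (Sept2C111A 1). The ratio of Sdha to Sdhc ran from 2.83 in control 3 to 4.51 in Sept2C111A 3. In complex III the order was Uqcrh (276 ± 78.1), Uqcrb (208 ± 65.6), Uqcr11 (179 ± 62.3), Uqcr10 (175 ± 66.4), Uqcrc2 (101 ± 42.4), Uqcrc1 (91.8 ± 46.2), Uqcrfs1 (76.9 ± 39.8) and Uqcrq (65.3 ± 25.8). Neighbours in these orders differed by less than the larger of their SDs, except Sdhd from Sdhc and Uqcr10 from Uqcrc2. These SDs hold the variation between libraries that the genes share, so they do not measure how steady an order is within a library. Sdha was above Sdhb per kb in every library, while the ratio of Uqcrc1 to Uqcrc2 ran from 0.80 (Sept2C111A 1) to 1.02 (Sept2C111A 3). Over complex I the range was from 9.39 CPM per kb for Ndufb2, whose principal transcript is annotated with 4371 bases, to 287 CPM per kb for Ndufa4. The last places of Sdhc and Uqcrq also rest on long annotated transcripts, of 3171 and 1521 bases. Those of Uqcr10, Uqcr11, Uqcrb and Uqcrh have 434 to 547 bases. By mean CPM, Uqcrq (99.3) lay above Uqcr10 (75.7) and Uqcr11 (79.8). The make-up of the summed RNA shifted with the libraries: complex II gave 13.4% of it in control 3, 14.4% in Sept2C111A 2 and 15.2% in control 2, and from 16.5% to 16.6% in control 1, Sept2C111A 1 and Sept2C111A 3.

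Reads of some members may include those of other genes. A total of 14 members share exon sequence with a gene on the other strand that has its own row, and the strand setting of the counting is not given in the sources used here. Among them are Ndufb2 with Braf and Uqcrc2 with Pdzd9. Of the members whose groups did not overlap, Ndufa2, Ndufa3, Ndufa11, Ndufa13, Ndufb11 and Ndufs6 are also among them. Ndufa5, Ndufa7, Ndufb10 and Ndufv3 are not. In 41 members the counts were whole in all 6 libraries, so no reads were divided there. Those 41 include Ndufa2, Ndufa3, Ndufa11 and Ndufs6, whereas counts were fractional in 3 libraries for Ndufa13 and in 6 for Ndufb11.

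The 48 genes lie on 17 chromosomes, and 40 had a promoter in the RefSeq table (GRCm38.p6, 250 bases before to 50 after the start). Motifs of factors known to act on respiratory genes were searched on both strands, with N for any base. The NRF1 motif GCGCANGCG was in 12 of 40 (30.0%), against 7.03% of 27025 genes and 13.9% of the 11341 tested genes in the table. The ETS motif CCGGAAG, which GABPA can bind, was in 8 (20.0%), against 9.93% and 18.3%. The YY1 motif AAGATGGCG was in 5 (12.5%), against 1.64% and 3.13%, and the ERR motif TCAAGGTCA was in Sdhd alone (2.5%), against 0.466% and 0.326%. Either of the first pair was in 18 members, and 18 held none of the 4. These are matches of letters and say nothing of binding in these aortas.

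The promoters below were chosen to show how NRF1 and ETS motifs sit in each complex, with the motifs in capitals. Each runs 5′ to 3′ on the gene's strand from 120 bases before to 10 after the RefSeq start. Ndufa11 (chr17:56717642-56717771, plus strand) has NRF1 matches on both strands that overlap, Sdha (chr13:74350231-74350360, minus strand) has 3 NRF1 matches, and Sdhd (chr9:50603840-50603969, minus strand) and Uqcr11 (chr10:80406812-80406941, minus strand) each have an NRF1 and an ETS match.
Ndufa11: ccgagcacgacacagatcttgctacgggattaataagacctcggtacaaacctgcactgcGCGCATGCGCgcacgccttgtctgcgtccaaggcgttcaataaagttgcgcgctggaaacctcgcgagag
Sdha: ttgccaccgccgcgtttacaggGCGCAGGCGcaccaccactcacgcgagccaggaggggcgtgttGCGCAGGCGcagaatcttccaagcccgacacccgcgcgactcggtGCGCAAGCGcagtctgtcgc
Sdhd: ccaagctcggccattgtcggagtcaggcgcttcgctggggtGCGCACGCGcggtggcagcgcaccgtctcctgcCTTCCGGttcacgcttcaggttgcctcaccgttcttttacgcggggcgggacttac
Uqcr11: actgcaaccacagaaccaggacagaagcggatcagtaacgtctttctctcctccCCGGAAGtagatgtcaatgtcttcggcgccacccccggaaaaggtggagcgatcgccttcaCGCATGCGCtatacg

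The rest of the pathway was read from lists of other genes. None of these genes passed edgeR's test, against 0.0% of all genes. Cyc1, the cytochrome c1 subunit of complex III, was at 126, 106 and 65.1 CPM in controls and 142, 99.6 and 240.6 CPM in Sept2C111A libraries, a log2 fold change of 0.64 (SE 0.37). Ndufab1, the acyl carrier protein held in complex I, was at 59.9, 44.6 and 28.2 CPM and at 63.5, 42.3 and 112 CPM, with an estimated log2 fold change of 0.66 (SE 0.40). Both were highest in Sept2C111A 3 and lowest in control 3, as most members were. Of the 16 complex I assembly factors tested all had estimates above 0, with a median of 0.25. Ndufaf3, which acts early in assembly, was at 9.40 ± 0.735 and 14.01 ± 1.47 CPM (SD, n = 3). DESeq2 called it (adjusted p = 0.0492), where 1.09% of all genes were called higher. Ndufaf8 had a log2 fold change of 0.33 (SE 0.16). Of 10 assembly factors of complexes II and III, 8 were above 0 and 2 below, with a median of 0.25. Sdhaf3 and Sdhaf4, factors for Sdhb and Sdha, showed fold changes (log2) of 0.64 (SE 0.28) and 0.39 (SE 0.18).

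Further down the chain, all 15 tested complex IV genes (Cox7a1 and Cox8b are also on the brown adipocyte list) and all 15 complex V genes had estimates above 0, with medians of 0.36 and 0.32. Cox4i1 and Cox6b1, subunits of cytochrome oxidase, showed fold changes (log2) of 0.34 (SE 0.21) and 0.38 (SE 0.24), and Atp5k and Atp5e, small subunits of ATP synthase, 0.56 (SE 0.20) and 0.32 (SE 0.15). The 16 enzymes of the citric acid cycle and pyruvate dehydrogenase were all above 0, with a median of 0.69. Pdhb and Dlat, parts of pyruvate dehydrogenase, were at 1.08 (SE 0.46) and 0.89 (SE 0.37). As for the members, each of these lists summed highest in Sept2C111A 3 and lowest in control 3. The sums in Sept2C111A 3 were 3068 CPM for complex IV, 5131 for complex V and 6071 for the citric acid cycle list. Elsewhere they ran from 1406 to 2015, 2590 to 3605 and 1536 to 3829 CPM. Control 1 lay above Sept2C111A 2 in each list, so the groups overlapped. Estimates for the list of outer membrane and protein import genes, which also holds the chaperonin genes Hspd1 and Hspe1, were not shifted between groups. Of its 12 genes 4 were above 0 and 8 below, with a median of -0.05. Its sum was also highest in Sept2C111A 3 (1916 CPM), but lowest in Sept2C111A 2 (1316.5 CPM). Tomm20, an import receptor, was at 125 ± 21.8 and 107 ± 9.82 CPM, and Timm44 had a log2 fold change of 0.30 (SE 0.18).

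Among 12 tested regulators of mitochondrial genes 8 were above 0 and 4 below. Pprc1, a coactivator related to PGC-1alpha, was at 62.1, 56.6 and 55.9 CPM in controls and 40.7, 47.3 and 41.6 CPM in Sept2C111A libraries. Gabpb1, the partner of GABPA, was at 45.1, 30.2 and 45.0 CPM and at 27.8, 25.5 and 28.2 CPM. In both genes every Sept2C111A library lay below every control. The same held for Yy1, at 91.6 to 95.4 CPM in controls and 84.3 to 89.8 CPM in Sept2C111A libraries. Tfam went the other way, at 24.7 to 25.3 CPM in controls and 25.6 to 28.4 CPM in Sept2C111A libraries. Pprc1 and Gabpb1 were named for the smallest p of the list, and the share of all genes with every Sept2C111A library lower was not counted. Their fold changes (log2) were -0.46 (SE 0.13) and -0.60 (SE 0.19), each with an edgeR adjusted p of 0.316 and no DESeq2 call (adjusted p = 0.0812 and 0.111). The median over the list was 0.22, and its highest log2 fold change was 1.23 (SE 0.47), for Ppargc1b.

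**Figure D5:**
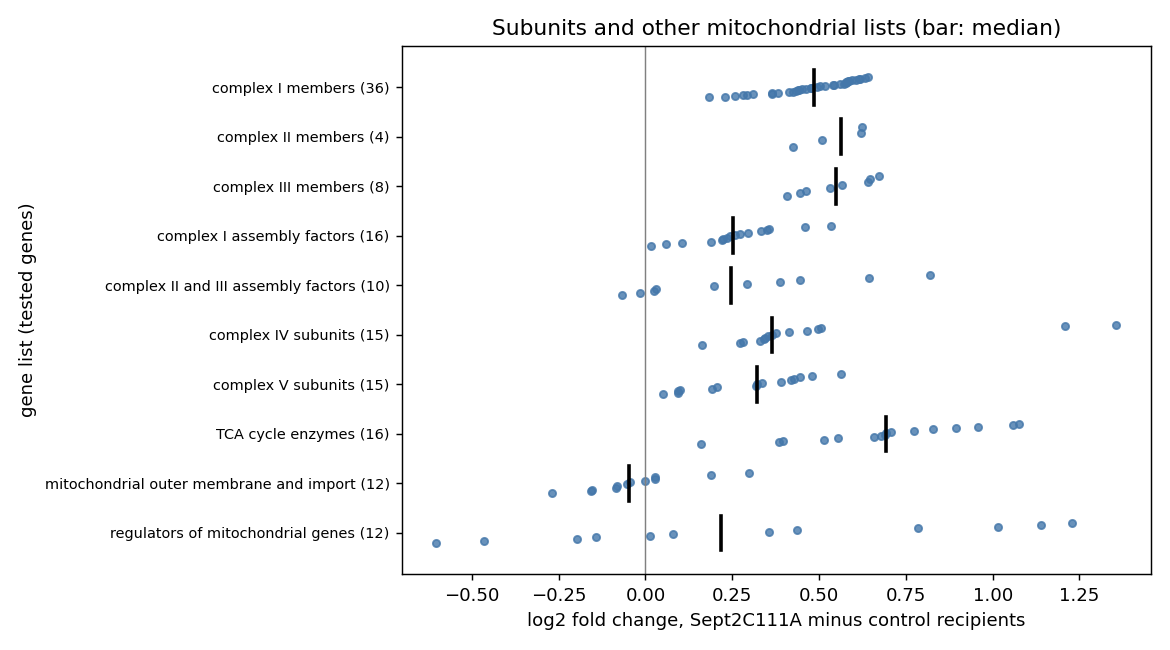
Log2 fold change (x axis, Sept2C111A minus control recipients, edgeR) of each tested gene of the subunit sets and 7 other mitochondrial lists (rows), with a bar at each median. The medians of complexes I, II and III lie at 0.49, 0.56 and 0.55, that of the citric acid cycle list at 0.69 and that of the outer membrane and import list at -0.05.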

How the data were processed

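Polyadenylated RNA of mouse aortas was sequenced in 6 libraries, per the labels' protocols. The authors deposited expected counts per gene, not normalised, using RSEM 1.3.1, Bowtie2, DESeq2 1.4.5 and build mm10 per the submitters' processing notes. Their annotation, strand setting and filters are not given in these labels. The heading of the Sept2C111A 3 column carries another library number than its file, so the assignment that GEO records was taken.

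CPM were computed on the total of all rows. Counts rounded to whole numbers were tested in R 4.3.3 with edgeR 4.0.16 (filterByExpr with a minimum count of 10, TMM, quasi-likelihood F test, group as the single factor, two-sided), with Benjamini-Hochberg adjustment over 14466 genes and a threshold of 0.05. The SE is the size of the fold change over the root of F. DESeq2 1.42.0 on the same genes and limma 3.58.1 (voom with quality weights) were alternatives, beside other scalings, other filters, a replicate block and leaving out libraries. The procedure was tested on simulated data. Coordinates (1-based) are from GENCODE vM21.

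The members, the 19 gene lists and the tests were chosen with earlier results of these data known. Named are the core, complex II and complex III genes, the 4 other complex I genes of smallest p in each direction (here higher only), the most and least abundant member, 2 genes of smallest p per pathway list, and the 2 most abundant of each marker list. Other names were chosen after their values were seen. The labels do not say that the libraries are separate animals, so p-values measure the spread between these samples. A member and a marker gene that enter the sums and counts are not reported by name here.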

Additional observations from a re-analysis of the deposited data

How the results depend on the processing

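Over 14 alternatives for each of 48 members (672 estimates), 666 kept their direction and side of the threshold and 5 changed direction, all without Sept2C111A 3: Ndufs4 was at -0.06 without that library, and without both control 3 and Sept2C111A 3, a setting chosen after the data had been seen, Ndufb2 was at -0.025, Ndufs4 at -0.156, Uqcrc1 at -0.00255 and Uqcrq at -0.00635. With each library left out in turn, Ndufb2 ran from 0.106 to 0.444, Ndufs4 from -0.058 to 0.34, Uqcrc1 from 0.216 to 0.937 and Uqcrq from 0.143 to 0.757. Without both control 3 and Sept2C111A 3 the medians of complexes I, II and III were 0.135, 0.0719 and 0.046, and the cause was not tested. DESeq2 called 575 genes and 1 member (Ndufv3, log2 fold change 0.63) where edgeR called 0 and 0, and with each library left out in turn, also chosen after seeing the data, it called 0 to 1 members and 332, 1769 and 323 genes without control 1, 2 and 3 and 240, 660 and 133 genes without Sept2C111A 1, 2 and 3. edgeR called 0 genes under every other alternative, and limma-voom called 0. Leaving out each library in turn, edgeR's median over complex I ran from 0.25 to 0.66, over complex II from 0.27 to 0.80 and over complex III from 0.25 to 0.78. Library totals in place of TMM shifted the median of all genes by 0.04 and that of the members to 0.56. With the replicate number as a block, edgeR called 0 genes and the complex medians were 0.47, 0.51 and 0.52. Same-numbered libraries did not deviate together (correlations across genes of 0.001, 0.156 and -0.165), and only the libraries numbered 2 correlated best with their own number, so the numbers were not taken as pairs. No member had fewer than 462 counts in a library, but counting error was not compared with the spread of each member.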

Other observations

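Ndufa4l2, a relative of Ndufa4 that responds to low oxygen, did not follow the subunit genes: it was at 9.31, 20.3 and 20.4 CPM in the controls and 24.7, 29.8 and 17.9 CPM in the Sept2C111A libraries, so that its highest value was in Sept2C111A 2, where 46 of the 48 members had the lowest value of their group. Its log2 fold change was 0.51 (SE 0.36; adjusted p by edgeR = 0.482).

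Dio2, the deiodinase of stimulated brown fat, parted from Ucp1 among the libraries. It was at 517, 239 and 4.78 CPM in the controls and 203, 444 and 113 CPM in the Sept2C111A libraries, so Sept2C111A 3 had the highest Ucp1 and the lowest Dio2 of its group. In the same library the atrial light chain Myl7 was at 149 CPM and the ventricular light chain Myl2 at 0.117 CPM.

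The coactivator Ppargc1a was at 5.66, 6.58 and 5.11 CPM in the controls and 6.06, 4.75 and 29.5 CPM in the Sept2C111A libraries. Tfam, which packages mitochondrial DNA, ran from 24.7 to 25.3 CPM in the controls and from 25.6 to 28.4 CPM in the Sept2C111A libraries. Its groups did not overlap, but its log2 fold change was small, at 0.08 (SE 0.10).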
